A study of Mus musculus with 2 samples.

Results

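The genes described are 10 markers of brain endothelium and of the blood-brain barrier, Cldn5, Pecam1, Flt1, Kdr, Ly6c1, Slc2a1, Esam, Ocln, Tek and Slco1a4. They were chosen by symbol, and each of the 10 was found among the 43346 mouse gene rows of either table. They were measured in 2 RNA-seq libraries of whole midbrain from B6NCrl mice, a C57BL/6N strain, on postnatal day 0, with no treatment or genetic change named in the labels. One library came from the midbrain of pup 1 and the other from that of pup 3, and both form 1 group. The input to amplification was 13 pg of RNA a library, about what 1 cell holds. Although the assay title speaks of single cells, the RNA was extracted from tissue, without isolation of cells. The sex of the pups is unrecorded, and both carry the same donor record.

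Endothelial cells line the vessels of the brain. Tight junctions close the gaps between them, transporters carry nutrients in and foreign compounds out, and receptors for vascular growth factors guide the sprouting and the upkeep of the vessels. In rodents brain vessels are already sealed by tight junctions at birth, while vessels go on growing and branching in the first weeks of life.

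Gene rows held 26037002 counts in pup 1 and 32408655 in pup 3, so that 3 counts, the upper limit for a gene at 0, stood for 0.115 and 0.0926 CPM (counts scaled to library size). Levels are TPM, a count per transcript length scaled to a common total, and a gene counted as detected at TPM 1 or more. Intervals and limits take in counting error alone, because amplified reads that stem from a small number of molecules are not independent. Each pup gave 1 library, so no difference between them could be checked in a replicate. Markers of the labelled tissue were read unevenly in part. Th of dopamine neurons read 46.9 TPM in pup 1 and 38.5 in pup 3, Otx2 of forebrain and midbrain 40.6 and 0.40, En1 of midbrain and anterior hindbrain 0.05 and 0.97, and 39 of 39 Hox genes, which mark the neural tube behind the midbrain, were without a count in either library. In RNA of a whole tissue, fewer endothelial cells and less RNA per cell cannot be told apart.

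Cldn5, Slc2a1 and Flt1 were detected in both pups, Esam was detected in pup 1 alone, and Kdr and Ly6c1 in pup 3 alone. Pecam1, Ocln, Tek and Slco1a4 were below TPM 1 in both. Thus 3 of the 6 members detected in either library were detected in both, against 60.8% of the 12144 genes detected in either library, and 1 and 2 were found in pup 1 or pup 3 alone, against 22.9% and 16.3%. The 10 members summed to 222.8 TPM in pup 1 and 253.3 in pup 3. Cldn5 alone made up 66.1% of the sum in pup 1 and 45.3% in pup 3. The summed TPM was thus of like size in both pups while its makeup differed. By counts the members were higher in pup 3, with 0.0222% of gene counts in pup 1 and 0.0366% in pup 3.

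**Figure D1:**
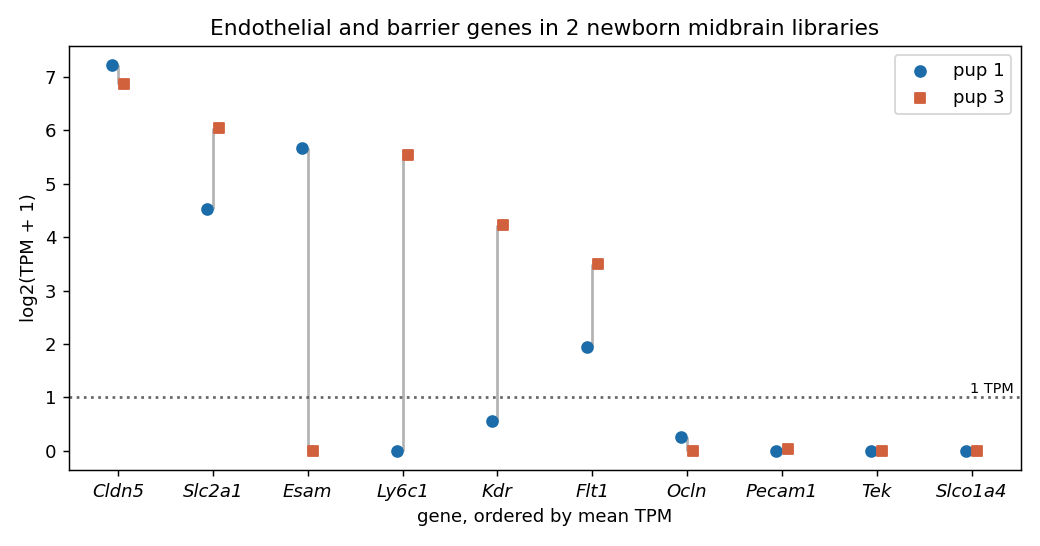
Level of each gene as log2(TPM + 1) in pup 1 (circles) and pup 3 (squares), with a line joining the 2 libraries and a dotted line at 1 TPM. Cldn5 was highest and close in both pups, while Esam, Ly6c1 and Kdr were above 1 TPM in 1 pup only.

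Among the junction and adhesion genes, Cldn5 stood highest. It encodes claudin-5, the main claudin of brain endothelial tight junctions (ENSMUSG00000041378.1, GRCm38 chromosome 16, 18776847 to 18778262, a gene with a single annotated transcript and a coding sequence of 218 codons). It read 147 TPM from 3158 counts in pup 1 and 115 TPM from 3440 counts in pup 3, a mean of 131 ± 23.0 (SD, n = 2). It was the highest of the 10 members in either library. Its level ranked 1148 among 10166 detected genes in pup 1 and 1509 among 9367 in pup 3. The deposited TPM intervals, 137.6 to 147.5 and 108 to 116, did not overlap. Scaled by the gene counts of each library, the ratio of pup 3 to pup 1 was 0.875 (exact 95% interval 0.834 to 0.919), a difference far under 4-fold. The protein-coding genes nearest to Cldn5 in log2(TPM + 1) over the 2 libraries were Spin1 (147 and 114 TPM), Rps23 (147 and 113) and Degs1 (150.04 and 114). They were the closest of 64 genes within a distance of 0.25, a likeness of level over 2 libraries only.

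Esam encodes an immunoglobulin-type adhesion molecule of endothelial junctions (ENSMUSG00000001946.9, chromosome 9, 37528078 to 37538319). It read 49.8 TPM from 1359 counts in pup 1 and had 0 counts in pup 3. By counting error alone, the exact 95% interval of the scaled count ratio put it at least 458-fold higher in pup 1. Against the limit of 3 counts in pup 3 the fold was 564. By the effective length deposited for the gene in pup 3, 3 counts equalled 0.173 TPM there, against 0.110 by that of pup 1. The deposited interval in pup 3 ended at 0.779 TPM. Of its counts in pup 1, ENSMUST00000002011.9, which codes for 394 amino acids, held 1303 and 90.9% of the abundance. ENSMUST00000146860.3, with 252 codons, held 54.1 counts and 8.77%.

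Ocln and Pecam1 were nearly unread. Ocln encodes occludin, a membrane protein of tight junctions (ENSMUSG00000021638.8, chromosome 13, 100496507 to 100552718), and had 12 counts in pup 1, or 0.20 TPM, and 0 in pup 3. Pecam1 encodes CD31, an adhesion molecule of endothelial cells, platelets and leukocytes (ENSMUSG00000020717.15, chromosome 11, 106654217 to 106750628). It had 0 counts in pup 1 and 1 count in pup 3, or 0.02 TPM. The deposited intervals for Pecam1 ended at 0.555 and 0.420 TPM, under the detection threshold in either library. Those for Ocln ended at 1.12 TPM in pup 1, just above the threshold, and at 0.519 in pup 3. Thus Cldn5, made mainly by endothelium in brain, had 3158 and 3440 counts where the gene of CD31, a standard endothelial marker, had 0 and 1.

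The receptor genes were all higher in pup 3 or unread. Flt1 encodes VEGF receptor 1, which binds VEGF-A tightly and signals weakly (ENSMUSG00000029648.9, chromosome 5, 147561604 to 147726011). It read 2.83 TPM from 314 counts in pup 1 and 10.4 TPM from 1602 counts in pup 3. The scaled count ratio was 4.10 with an interval of 3.63 to 4.64, which includes 4-fold. Kdr encodes VEGF receptor 2, the main signalling receptor for VEGF-A (ENSMUSG00000062960.7, chromosome 5, 75932827 to 75978458). It read 0.48 TPM from 46 counts in pup 1 and 17.8 TPM from 2361 counts in pup 3, a ratio of 41.2 (30.8 to 56.5). The order of the 2 receptors thus differed between the libraries: Flt1 was above Kdr in pup 1 and below it in pup 3. In neither pup did the deposited intervals of Flt1 and Kdr overlap. Tek encodes TIE2, the receptor for angiopoietins (ENSMUSG00000006386.11, chromosome 4, 94739289 to 94874976), and had 0 counts in both libraries, where 3 counts equalled 0.0552 TPM in pup 1 and 0.0395 in pup 3. The deposited intervals for Tek reached 0.729 and 0.527 TPM.

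Flt1 gives rise to a membrane receptor and to a shorter secreted form, sFLT1, which traps VEGF-A. The annotation holds a longer coding transcript of 1333 amino acids, ENSMUST00000031653.7, and a shorter one of 688, ENSMUST00000110529.3. They share their first 1972 coding bases and part at the end of exon 13, where the shorter transcript reads on into the intron. The coding sequence around this point shows where a read can tell the forms apart; lower case is shared, capitals differ in origin, and both are on the minus strand of GRCm38 chromosome 5 between 147634494 and 147639254, from coding base 1943 to 2002.
Flt1 longer form: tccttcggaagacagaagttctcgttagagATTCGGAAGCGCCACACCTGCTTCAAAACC
Flt1 shorter form: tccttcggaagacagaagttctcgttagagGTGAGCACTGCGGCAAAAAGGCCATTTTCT
The deposited table gave the longer form all of the gene's abundance, 100% in either pup, with 314 and 1602 counts. The shorter form was listed at 0 counts in both libraries. The other 3 Flt1 transcripts, which have no coding sequence in the annotation, were also at 0. Kdr likewise had 100% of its abundance in pup 3 on ENSMUST00000113516.1, of 1345 codons.

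Of the 2 transport genes, Slc2a1 was read in both pups and Slco1a4 in neither. Slc2a1 encodes GLUT1, which carries glucose across the barrier and is also made by astrocytes and red cells (ENSMUSG00000028645.6, chromosome 4, 119108711 to 119137983). It read 22.1 TPM from 902 counts in pup 1 and 65.0 TPM from 3711 counts in pup 3, with non-overlapping deposited intervals of 20.5 to 23.6 and 61.8 to 66.05. The scaled count ratio was 3.31 (3.07 to 3.56), under 4-fold. All of its abundance lay on ENSMUST00000030398.5 in both libraries. Of 7 red cell genes, 5 were detected in either library. The summed level of the list was 1703 TPM in pup 1 and 2891 in pup 3, higher in the same pup as Slc2a1. The haemoglobin genes led it, with Hba-a2 at 733 and 1099 TPM, Hbb-bs at 476 and 819, Hba-a1 at 328 and 562 and Hbb-bt at 166 and 381, of which the alpha and beta pairs are close copies. Alas2, an enzyme of haem synthesis in red cells, had 0 and 1354 counts, while Slc4a1, which encodes the red cell anion exchanger, had 1 and 3. The 7 astrocyte endfoot genes summed to 455 and 302 TPM, but went both ways. Slc1a3 read 213 and 101 TPM and Mlc1 46.9 and 54.5. The list's median difference of log2(TPM + 1), pup 3 minus pup 1, was -0.01. The part of red cell or astrocyte RNA in the Slc2a1 level was not tested.

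Slco1a4 encodes an organic anion transporter of the barrier (ENSMUSG00000030237.10, chromosome 6, 141805440 to 141856199). It had 0 counts in both libraries, where 3 counts equalled 0.0863 and 0.0617 TPM, and the deposited intervals reached 0.391 and 0.281 TPM. Only 1.10% of the 100-base windows of its longest coding transcript also occurred in Slco1a1 or Slco1a5, so few of its reads could match these paralogs. Slco1a5 was at 0 in both pups, and Slco1a6, which shared no such window, had 0 and 1 count. The counts of Slco1a1 were not examined.

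Ly6c1 encodes a surface protein anchored by a lipid, found on brain endothelium and on some blood cells (ENSMUSG00000079018.6, chromosome 15, 75044018 to 75048830). It had 0 counts in pup 1 and 757 counts in pup 3, or 45.3 TPM with a deposited interval of 42.02 to 49.5. By counting error alone, the exact 95% interval of the scaled ratio put it at least 164-fold higher in pup 3. Against the limit of 3 counts in pup 1 the fold was 203. By the effective length deposited for the gene in pup 1, 3 counts equalled 0.353 TPM there, against 0.180 by that of pup 3. The deposited interval in pup 1 reached 1.63 TPM, so a level just above the threshold is not outside it. The leading transcript, ENSMUST00000065408.11, held 741 counts and 96.4% of the abundance.

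Ly6c1 has a close copy, Ly6c2, a monocyte gene on the same chromosome at 75108158 to 75111970. Their coding sequences of 396 bases were 97.7% identical, with 9 differences and an identical run of 188 bases. Of the 100-base windows of the leading Ly6c1 transcript, 15.3% also occurred in Ly6c2, so part of the reads could match both. The stretch of 60 coding bases with the most differences, coding bases 6 to 65 in exon 2, shows what separates them, with the 6 differing bases in capitals. On the minus strand of GRCm38, it lies at chr15:75048447-75048506 for Ly6c1 and at chr15:75111603-75111662 for Ly6c2.
Ly6c1: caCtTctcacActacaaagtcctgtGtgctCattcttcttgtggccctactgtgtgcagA
Ly6c2: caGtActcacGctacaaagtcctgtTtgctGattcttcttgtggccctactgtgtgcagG
The deposited counts gave Ly6c2 0 in pup 1 and 1.29 in pup 3, so nearly all reads of the pair in pup 3 were placed on Ly6c1. A pair of other genes of this cluster was picked with their values in view. Ly6a, at 74994877 to 74998031, had 0 counts in pup 1 and 702 in pup 3 (0 and 41.1 TPM), the same presence and absence as Ly6c1. Ly6e, at 74955051 to 74959905 and one of the endothelial identity genes, was read in both, at 98.9 and 295 TPM. Of 11 leukocyte and platelet genes only Pf4 (21.04 and 31.1 TPM) was detected. Their summed level was 21.5 TPM in pup 1 and 31.2 in pup 3. Cd3e, Lyz2, S100a9, Itga2b, Gp9 and Ppbp were at 0 in both, and Ptprc, the general leukocyte gene, had 1 and 0 counts. The part of blood cell RNA in the Ly6c1 level was not tested.

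No other member had much sequence in common with another gene. Of the 100-base windows of the transcript examined, 0% were shared for Cldn5, Pecam1, Flt1, Kdr, Esam, Ocln and Tek, and 0.190% for Slc2a1, with its antisense gene Gm12868. The exons of Gm12868 overlap those of Slc2a1, and it had 1.05 and 0 counts. Where counting ignores strand, reads of the 2 genes in the overlap cannot be told apart.

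By the rule that the whole exact 95% interval of the scaled count ratio lie beyond 4-fold, 3 members differed between the libraries, against 46.5% of the 12144 genes detected in either. These were Kdr and Ly6c1, higher in pup 3 as were 20.5% of all these genes, and Esam, higher in pup 1 as were 25.9%. As all 3 are among the 6 members detected in either library, their share was near the background. Among the 6 the median difference of log2(TPM + 1), pup 3 minus pup 1, was 1.54, against -0.07 over the 12144 genes. Over all 10 members, of which 4 were at or near 0 in both, it was 0.01. The rule compares 2 libraries and not conditions.

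How often a gene read in 1 library was missed in the other depended on its level. Among the 2793 genes that pup 1 held at 20 to 50 TPM, 654, or 23.4%, were left with fewer than 3 counts by pup 3, as were 10.8% of the 1572 genes at 50 to 100 TPM. Esam, with 49.8 TPM in pup 1, lies at the border of these classes. Ly6c1 fell in the class of 20 to 50 TPM by its level in pup 3, with 2698 genes, and 501 of them, or 18.6%, had fewer than 3 counts in pup 1. For the class of Cldn5, 100 to 300 TPM, the shares were 2.75% and 1.95%. Kdr and Flt1 lay in the class of 10 to 20 TPM in pup 3, where 23.6% of genes were missed in this way by pup 1, yet both had counts there. In these classes 653 and 500 genes besides Esam and Ly6c1 were thus below 3 counts in the other library.

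**Figure D2:**
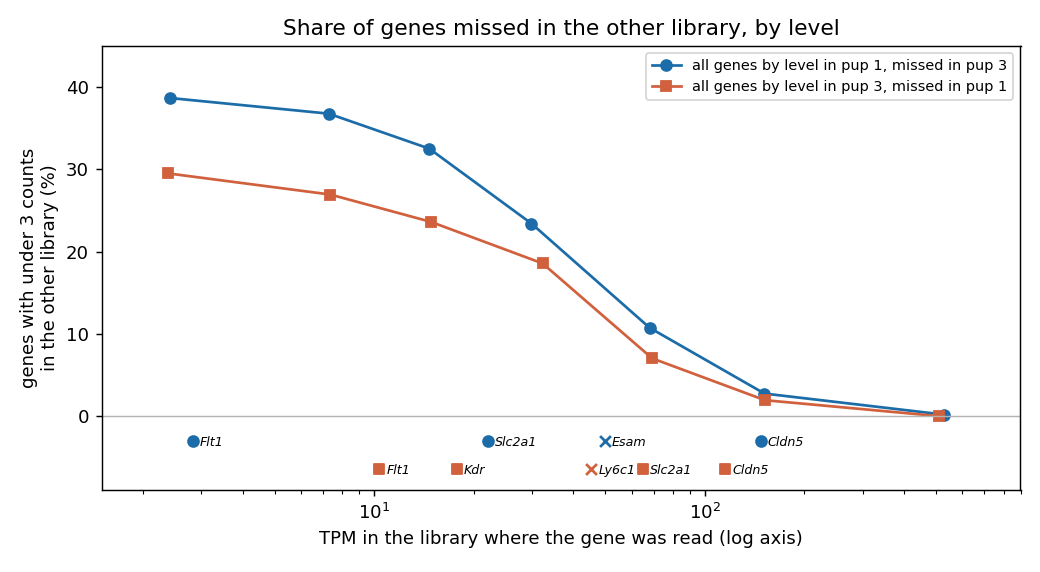
Percent of all genes with under 3 counts in the other library, for 7 classes of TPM placed at their median level on a log axis (circles, by level in pup 1; squares, by level in pup 3). Members at TPM 1 or more stand under the axis at their own level, and crosses mark Esam and Ly6c1, which had 0 counts in the other library.

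Further genes of vessels, of barrier signals and of neighbouring or blood cells were taken from lists set by function, 142 genes in 11 lists. Of them 50 were detected in neither library. The 92 detected in either split into 60 in both pups, 20 in pup 1 alone and 12 in pup 3 alone. Over all 12144 genes detected in either library these shares were 60.8%, 22.9% and 16.3%, the background also for each list below. Among the 92 detected in either library, pup 1 exceeded pup 3 by over 4-fold for 26 (28.3%), and the reverse held for 12 (13.0%), against 25.9% and 20.5% of all detected genes. Of the 28 endothelial identity genes, both libraries held 8, pup 1 alone 6, pup 3 alone 2, and 12 were in neither. The highest were Ly6e, Ramp2 (62.9 ± 16.3 TPM), a partner of the adrenomedullin receptor, Egfl7 (53.8 ± 11.95), a secreted endothelial factor, and Ecscr (32.8 ± 7.49), a surface protein of endothelial cells. Ly6e is expressed in many cell types. Vwf, the von Willebrand factor, picked with its values in view, read 17.3 and 33.8 TPM. The defining junction gene Cdh5, which encodes VE-cadherin, had 12 counts in pup 1 and 0 in pup 3. Icam2, Sox17, Robo4, Erg, Mmrn2, Clec14a, Sox18 and Klf2 had 0 counts in both. Defining endothelial markers were thus read in part.

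Some endothelial identity genes had counts in 1 pup alone, on both sides, and the following were picked with their values in view. Cd34 stood at 50.1 TPM in pup 1 but had 0 counts in pup 3, like Esam, as did Emcn, which encodes endomucin, at 29.1 TPM. Sox7, an endothelial transcription factor, read 0 and 29.5 TPM and the receptor Tie1 0 and 6.4, both like Ly6c1. By the 4-fold rule pup 1 was higher for 7 of the 16 detected genes and pup 3 for 2, or 43.8% and 12.5%, beside the same 25.9% and 20.5%. The summed level was 427 TPM in pup 1 and 522 in pup 3, of which Ly6e made up 98.9 and 295.

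**Figure D3:**
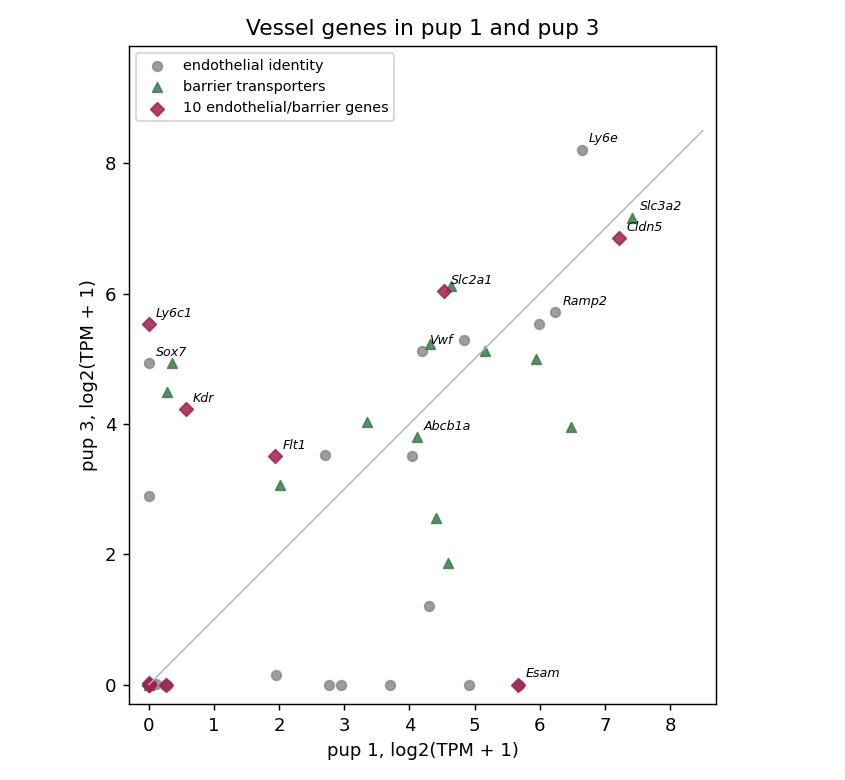
Level in pup 3 against level in pup 1, as log2(TPM + 1), for the 10 endothelial and barrier genes (diamonds), 28 endothelial identity genes (circles) and 14 barrier transporters (triangles), with the line of equal levels. Cldn5 lies near the line, Slc2a1, Flt1 and Kdr lie above it, and Ly6c1 and Esam lie at 0 in 1 of the pups.

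Of the 14 barrier transporters, 11 were detected in both libraries, 2 by pup 3 alone and 1 in neither. Slc3a2, the heavy chain of the large amino acid transporter, stood at 156 ± 19.3 TPM, and Abcg2, an efflux pump, at 46.3 ± 31.7. Tfrc, the transferrin receptor, read 60.5 and 30.9 TPM. Slc38a5, an amino acid transporter, read 87.9 TPM in pup 1 and 14.4 in pup 3, over 4-fold apart. Mfsd2a (34.8 and 33.6 TPM), which carries lipids with docosahexaenoic acid, and the efflux pump Abcb1a (16.3 and 12.9) were close in both libraries, and were picked with their values in view. Abcc4 had 0 counts in both. Several of these genes, such as Slc3a2 and Tfrc, are expressed by many cell types.

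Of 14 tight junction partners, 5 were in neither library. The 9 detected in either split into 3 shared by the pups, 4 in pup 1 alone and 2 in pup 3 alone. Over all detected genes these shares were 60.8%, 22.9% and 16.3%. The angulin gene Lsr (37.7 and 38.8 TPM), the junction adhesion gene Jam2 (23.9 and 25.8) and the cingulin gene Cgn (14.6 and 22.6) were read in both. By counts, however, Jam2 was lower in pup 3, with 1304 and 614 counts and an interval of 0.343 to 0.417 for the scaled ratio. Jam3 read 26.4 and 0 TPM. The 3 other claudins of the list were each detected in 1 pup, Cldn3 at 24.2 and 0 TPM, Cldn1 at 20.1 and 0.01 and Cldn12 at 0 and 7.53. Of these 4 claudins Cldn5 was the one detected in both pups, and its TPM was above that of the other 3 in either library. Marveld2, Marveld3, Tjp3 and F11r had 0 counts in both.

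Of 14 genes of VEGF, angiopoietin and related vessel signals, 3 were detected in both pups, 3 in pup 1 and not pup 3, and 8 in neither, while 50.2% of all protein-coding genes were detected in either library. Among the 9 that are VEGF or angiopoietin ligands or neuropilins, 6 were detected in either. The 3 at 0 in both were Vegfa, which encodes the shared ligand of Flt1 and Kdr, Vegfc and Vegfd. The receptor genes Flt4, Notch4 and Aplnr and the ligand genes Dll4 and Apln were also at 0. The co-receptors Nrp1 (50.3 and 16.2 TPM) and Nrp2 (8.42 and 6.54) were in both pups, as was Vegfb, a ligand of Flt1 (3.71 and 36.9, over 4-fold higher in pup 3). Neuropilins are also axon guidance receptors of neurons. Angpt1 (15.7 and 0), the activating ligand of TIE2, Angpt2 (19.6 and 0) and Pgf (16.7 and 0) were read in pup 1 only, while Tek, the receptor gene for both angiopoietins, was at 0.

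The list for the Wnt pathway that induces the barrier held 15 genes, of ligands, receptors, effectors and targets. Both pups held 4 of them, pup 1 alone 2, pup 3 alone 1, and 8 were in neither. Ctnnb1, the signal transducer beta-catenin, stood at 193 ± 35.6 TPM and Tspan12, a co-activator of the Norrin receptor, at 94.8 ± 37.6, and Lef1, a target and effector of the pathway, read 11.6 and 2.23. Apcdd1, a Wnt inhibitor, read 21.3 and 0, and Adgra2 read 7.77 and 0. Lrp6 read 0 and 13.2 TPM, from 0 and 2795 counts. The ligands Wnt7a and Wnt7b, the receptor genes Fzd4 and Lrp5 and the co-receptor Reck had 0 counts in both.

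Markers of cells next to the endothelium were counted in the same way. Mural cells, the pericytes and smooth muscle cells of vessels, had 7 of 16 genes in both libraries, 4 more in pup 1, 2 more in pup 3 and 3 in neither. Vtn read 80.0 and 64.4 TPM, Rgs5 24.2 and 63.2, Higd1b 22.7 and 52.6 and Atp13a5 30.4 and 22.1, all pericyte genes, while Myh11, Tagln and Anpep were at 0 in both. Their summed level was 211 TPM in pup 1 and 280 in pup 3. Meningeal fibroblast genes were in both pups for 8 of 8, led by Ptgds (2555 and 3513 TPM), Igf2 (206 and 259), Apod (133 and 259) and Dcn (51.1 and 111), and astrocyte endfoot genes for 6 of 7, led by Slc1a3 (213 and 101), Gja1 (112 and 70.7), Mlc1 (46.9 and 54.5) and Dag1 (38.0 and 37.6). Of 8 microglial genes, 5 were shared by the libraries, the highest of the list were C1qc (41.5 and 34.9 TPM), Ctss (55.3 and 1.75), C1qb (13.2 and 39.1) and Csf1r (15.3 and 29.2), and Tmem119 was at 0. The lists differ in how highly their genes are expressed, so their counts do not compare cell types.

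**Figure D4:**
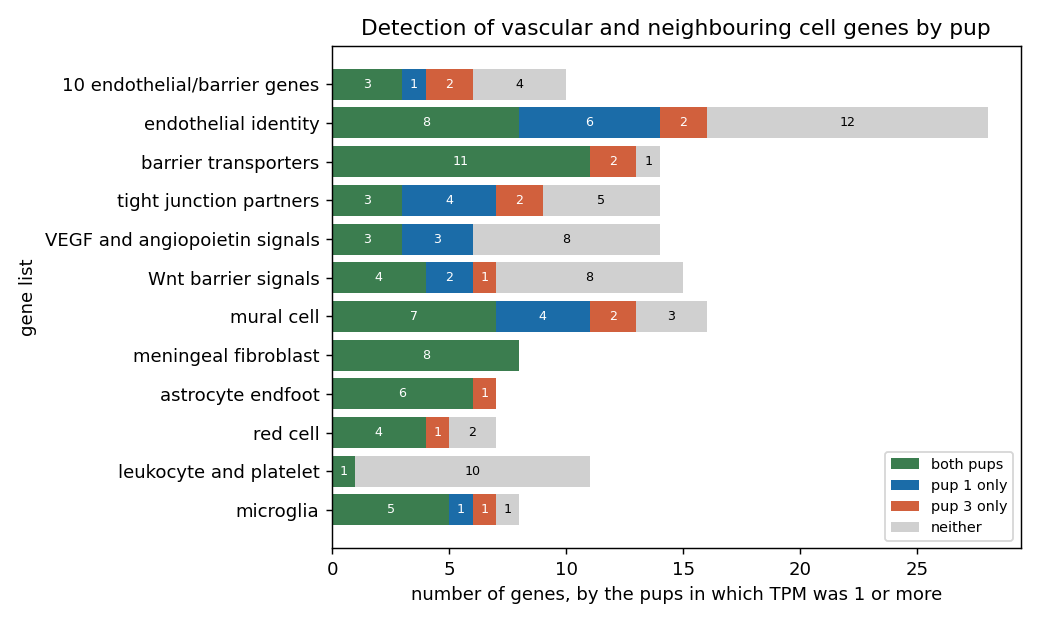
Number of genes of each list at TPM 1 or more in both pups, in one of them or in neither, by colour. The 10 endothelial and barrier genes had 3, 1, 2 and 4, against 11, 0, 2 and 1 for barrier transporters and 8, 6, 2 and 12 for endothelial identity genes.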

How the data were processed

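Total RNA of 2 newborn mouse midbrains was sequenced, and gene and transcript tables were deposited per library. Per the file headers, the authors aligned reads to mm10 with GENCODE release M4. Which aligner and quantification program were used, in which version, and whether strand was used, is not given in the sources used here. Expected counts as deposited divide reads that match several genes, and were rounded for counting intervals. The deposited TPM values are scaled over all rows, spike-ins included, and the deposited FPKM values and posterior means served as alternatives. Isoforms were read from the deposited percent that each transcript holds. Effective lengths in the tables are lengths less 99, hence windows of 100 bases.

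Rows other than mouse genes held 2.05% and 2.21% of counts and were left out of library totals. Symbols came from the supplied table (42462 of 43346 identifiers), coordinates, coding lengths and sequences from GENCODE M21, whose GRCm38 is the same assembly as mm10. A gene was detected at TPM 1 or more. Count ratios carry exact (Clopper-Pearson) 95% intervals, scaled by gene totals, and a gene at 0 was set to a floor of 3 counts in its library for folds. No test across pups was run. The 4-fold rule was tested on simulated counts with counting error only. Genes named were the members, the 4 highest of each list by mean TPM and those at 0 in both libraries, close paralogs and the 3 genes nearest to Cldn5. Other genes named (other genes of the lists, the Ly6 cluster and the tissue markers) were picked outside this rule, with their values in view. Members and lists were chosen with earlier results of these data known. Tools were Python 3.11.15, numpy 2.4.6, scipy 1.17.1, pandas 2.3.3, biopython 1.88, matplotlib 3.10.9, and, for scaling factors only, edgeR 4.0.16 and DESeq2 1.42.0 in R 4.3.3.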

Additional observations from a re-analysis of the deposited data

How the results depend on the processing

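The number of members detected in both pups ranged from 2 (TPM 10) to 4 (TPM 0.1 or 10 counts) over 5 thresholds and units, and each library alone gave 4 or 5. For the related genes it ranged from 45 to 66, and 72 or 80 with 1 library alone. Esam, Kdr and Ly6c1 made up the 3 members over 4-fold apart, and the count was also 3 with edgeR and DESeq2 factors, posterior mean counts and a count filter, and 6 at 2-fold. Either set of factors lowered all ratios of pup 3 to pup 1 by 0.19 or 0.20 on the log2 scale, from a median of 0.22 over genes in both pups to 0.02, and no member ratio turned direction. The members' median log2 difference of 0.01 was 0.13 with a pseudocount of 0.1, 1.54 over detected members only and -0.07 with posterior mean TPM, so its sign depended on the setting. Their summed level was 136.6 in pup 1 and 174.1 in pup 3 in FPKM, another scale. Leading transcripts were the same by counts in 9 of 9 cases. No paired analysis was possible because both libraries form 1 group. By counting error alone, a gene at 0 could stand at up to 0.115 CPM in pup 1 or 0.0926 in pup 3. Genes missed at a higher level are not covered by this limit, such as Esam, with 49.8 TPM in pup 1 and 0 counts in pup 3.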
